A study of Homo sapiens with 4 samples.

Results

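Ribosome assembly in the nucleolus was examined through 50 genes that encode its factors, in MM.1S cells, an established human multiple myeloma line. The rule takes the genes by name and uses no measured value, although the list was drawn up with earlier results of these data known, and all 50 were found among the 16057 rows of the deposited table. One group of cultures received JG342, an allosteric inhibitor of the HSP70 chaperones, at a concentration of 350 nM, and the other received the solvent DMSO, both for 26 h. RNA sequencing was done on biological duplicates, which gives 2 libraries per treatment (replicates 1 and 2) and 4 in all. All of them come from 1 cell line, 1 dose and 1 time, in medium with serum, antibiotics and glutamine.

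Ribosomes are assembled mainly in the nucleolus. RNA polymerase I transcribes a long precursor of the ribosomal RNAs there, small nucleolar ribonucleoproteins (snoRNPs) modify and help to cut it, and large sets of assembly factors fold it with ribosomal proteins into the small and the large subunit. The process uses much of the energy of a growing cell, its genes are classical targets of the transcription factor MYC, and cells that make much protein, such as plasma cells and myeloma cells, depend on it.

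Values are in TPM (transcript levels scaled to a common library total), which are corrected for transcript length, so that levels can be compared between genes. TPM values are shares of the RNA in a library, and a smaller share cannot be told apart from less RNA of a gene per cell when total RNA changes. The libraries summed to between 994463 and 994718 TPM, and their sequencing depth is unknown because TPM keeps no read count. Of 9 markers of plasma cells, all were detected in every library, with a summed level of 5252 and 4507 TPM in DMSO and 5206 and 4801 TPM in JG342. Of 11 markers of other cell types, 9 were in the table, with a summed level of 55.9 and 64.8 TPM in DMSO and 66.7 and 57.3 TPM in JG342. LYZ made up most of that sum, and EPCAM was listed at 0 in both JG342 libraries, CD14 in JG342 replicate 1 and ALB in DMSO replicate 2. Neither sum separated the treatments. Single plasma cell markers did differ: of the 9, IRF4 and PRDM1 rose (log2 fold change 0.77 and 0.36, limma adjusted p 0.000986 and 0.0410), TNFRSF17 and MAF fell (−0.44 and −0.46, limma adjusted p 0.0472 and 0.0417) and 5 did not pass. With the replicate number as a block in the fit, SDC1 was also called lower and SLAMF7 higher (limma adjusted p 0.00764 and 0.000422). Of the markers of other cell types, CD3E was then called lower and HBB higher (limma adjusted p 0.00753 and 0.00972), and LYZ and PECAM1 were not called. Without the block neither CD3E nor HBB passed (limma adjusted p 0.132 and 0.0521). The part of these marker changes in the results was not tested.

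Most of the 50 genes were lower after JG342, and none passed the test as higher. Of the 50, 24 fell (limma adjusted p under 0.05), whereas 7.62% of all 12042 fitted genes (those averaging 1 TPM or more) were called lower and 10.8% were called higher. No member was called higher, and with an unadjusted limma p under 0.05 the counts were 39 lower and 0 higher, against 14.9% and 18.7% of all fitted genes. On the log2 scale the median change of the 50 was −0.34, against 0.03 over all fitted genes, and single genes ran from −0.77 (UTP20) to 0.14 (RRN3). In 45 of the 50, both JG342 libraries lay under both DMSO libraries, which held for 28.2% of all fitted genes. The exceptions, with overlapping treatments, were NPM1, NOP10, RRN3, RRP12 and NOB1. Summed over the 50 genes, the level came to 8569 and 9122 TPM under DMSO and 6860 and 7453 TPM under JG342, or 0.862% and 0.917% of the total against 0.690% and 0.749%. The JG342 sums thus lay under both DMSO sums, and without NPM1, by far the most abundant member, they were 5030 and 5349 TPM against 6495 and 6839 TPM.

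**Figure D1:**
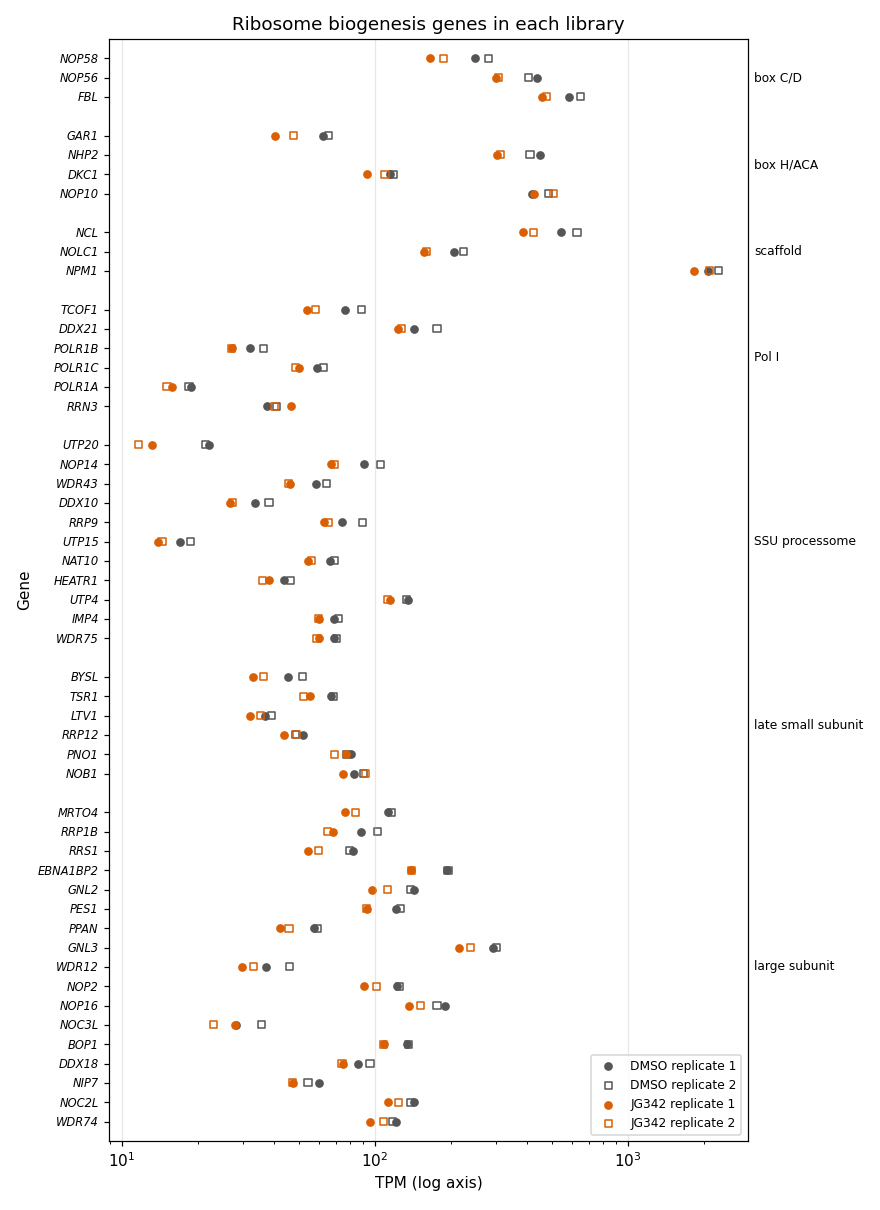
Level of each of the 50 genes in TPM (horizontal log axis) in the 2 DMSO libraries (grey) and the 2 JG342 libraries (orange), with filled circles for replicate 1 and open squares for replicate 2, grouped by role. In 45 genes both orange points lie to the left of both grey points; NPM1, NOP10, RRN3, RRP12 and NOB1 overlap.

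The count of members called depended on how the 2 libraries per treatment were modelled. Same-numbered libraries share a prefix in their descriptions, and that number was entered as a block in the fit. With it, 38 of the 50 were called lower and 0 higher, against 15.7% and 19.2% of all fitted genes. In that fit the variance is set by expression level alone. A call gained with the block therefore need not reflect less spread within pairs. The block together with scaling of the libraries to equal medians gave 42 lower and 0 higher, against 19.2% and 13.9%. The genes this added to those of the block alone were IMP4, POLR1A, UTP15 and WDR75 (limma adjusted p 0.0197 to 0.0444). Scaling also moved the balance of all calls, since higher genes were 58.7% of the calls on TPM as deposited and 44.6% after scaling to equal medians, and 32 of the 50 genes were then lower and 0 higher, against 9.97% and 8.02% of all fitted genes. Fewer members were called when genes with low values stayed in the fit (8 lower, against 1.84% of 16057 genes) or when the variance was not modelled on the expression level (12 lower, against 4.37%). Leaving out DMSO replicate 1 left 8 members called lower (3.3% of all fitted genes), leaving out DMSO replicate 2 left 3 (1.59%), and leaving out JG342 replicate 1 or 2 left 11 (5.7%) or 20 (5.96%). Without the block, 8 of the 14 genes gained with it also passed after scaling to equal medians: POLR1B, POLR1C, UTP4, HEATR1, RRP9, NAT10, TSR1 and DDX18 (limma adjusted p 0.0272 to 0.0494). Statements below on a fit with or without the block refer to TPM as deposited. The median of the 50 genes stayed between −0.41 and −0.30 in all of these fits. UTP20 was the member called lower in every fit, and EBNA1BP2, MRTO4, NHP2, NOP56 and RRS1 joined it in every fit on all 4 libraries.

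The promoters of the genes were searched for what the list did not select on. RefSeq promoter sequences (GRCh38.p14) were matched for 42 of the 50 genes, and the 250 bases before the start were searched on both strands for CACGTG, the E-box bound by MYC with its partner MAX, for CCGGAAG, a core bound by ETS factors, and for AAGATGG, part of the site of YY1, which shares its opening letters with the end of the ETS core and can overlap it. A gene was counted if any of its promoter windows held the motif, and some genes, such as GAR1, have 2 windows. The ETS core was present in 18 of the 42 genes (42.9%). It was present in 19.5% of the 9617 fitted genes with a promoter in the table and 10.2% of all 27305 genes with one. Of the other ribosome assembly genes set out below, 114 had a promoter in the table, and 35 of these held the ETS core (30.7%). Among called and uncalled members the counts were 5 of 18 and 13 of 24. The E-box was present in 7 of 42 (16.7%), against 11.4% of the fitted genes, and the YY1 letters in 3 of 42 (7.14%), against 4.64%. In the 114 other assembly genes these shares were 13.2% and 7.02%. The E-box was found in UTP20 and EBNA1BP2 among the called members and in DDX21, IMP4, NAT10, NOP10 and UTP4 among the others. Sequence is shown for the 5 members with an E-box or an ETS core whose surrounding stretch touches no annotated exon, which sets a gene with a large fall (UTP20) and 2 snoRNP genes that fell (FBL and GAR1) beside 2 genes that did not pass without the block (RRP9 and LTV1). Capitals mark the E-box in UTP20 and the ETS core in the others. In GAR1 and LTV1 the core lies on the opposite strand and is therefore read as its reverse complement. Each stretch reads 5′ to 3′ on the strand of its gene:
UTP20, chr12:101280070-101280104, plus strand: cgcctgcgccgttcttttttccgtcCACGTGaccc
FBL, chr19:39846541-39846597, minus strand: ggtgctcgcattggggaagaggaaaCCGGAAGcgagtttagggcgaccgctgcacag
GAR1, chr4:109815457-109815509, plus strand: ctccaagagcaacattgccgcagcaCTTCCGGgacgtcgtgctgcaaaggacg
RRP9, chr3:51942104-51942154, minus strand: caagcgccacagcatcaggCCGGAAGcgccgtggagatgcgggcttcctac
LTV1, chr6:143843256-143843312, plus strand: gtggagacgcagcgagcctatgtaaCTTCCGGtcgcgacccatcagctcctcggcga

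The core proteins of the box C/D snoRNPs, the particles that guide methylation of ribosomal RNA, all fell. NOP58, a scaffold of the particle, stood at 248 and 281 TPM under DMSO and at 166 and 187 TPM under JG342. Both treated libraries were under both controls, and the log2 fold change was −0.58 ± 0.11 SE (limma adjusted p 0.00754). NOP56, the partner that pairs with NOP58, had 437 and 405 TPM in DMSO and 300.03 and 308 TPM in JG342, a change of −0.47 ± 0.09 (limma adjusted p 0.00971). FBL, which encodes the methyltransferase fibrillarin, had 587 and 649 TPM in DMSO and 459 and 477 TPM in JG342, a change of −0.40 ± 0.09 (limma adjusted p 0.0196). So the 3 genes, all highly expressed, were at 66.5%, 72.2% and 75.7% of their DMSO means. Without DMSO replicate 1 the call was kept by NOP58 alone, without DMSO replicate 2 by NOP56 alone, and without JG342 replicate 1 by both of these; limma adjusted p over these 3 fits ranged from 0.0222 to 0.170, with log2 fold changes from −0.67 to −0.33.

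Of the core proteins of the box H/ACA snoRNPs, which guide the conversion of uridine to pseudouridine, 2 of 4 fell. Over all fitted genes 7.62% were called lower. GAR1, a core protein needed for release of the product RNA, had 62.4 and 65.6 TPM in DMSO and 40.2 and 47.5 TPM in JG342, and fell by 0.54 on the log2 scale (SE 0.12, limma adjusted p 0.0145). NHP2, an RNA-binding core protein, had 451 and 410.3 TPM in DMSO and 304 and 313 TPM in JG342, and fell by 0.48 (SE 0.09, limma adjusted p 0.00974). Part of the NHP2 transcript, 38.7% of its length, matches the pseudogene NHP2P1 at 97.8% identity, so its level carries that uncertainty. DKC1, which encodes the pseudouridine synthase dyskerin, had 115 and 118 TPM in DMSO and 93.0 and 109.7 TPM in JG342, and its change of −0.20 ± 0.11 did not pass (limma adjusted p 0.231). NOP10, the smallest core protein, had 419 and 485 TPM in DMSO and 427 and 509 TPM in JG342. Its treatments overlapped and its change was 0.05 ± 0.12 (limma adjusted p 0.816), with a negative sign after scaling to equal medians (−0.02). Whether the changes of NOP10 and DKC1 differ from those of GAR1 and NHP2 was not tested. GAR1 lost its call without DMSO replicate 1, DMSO replicate 2 or JG342 replicate 1, and NHP2 lost it without DMSO replicate 1 (limma adjusted p 0.0585 to 0.0996).

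Of the abundant nucleolar proteins, nucleolin and NOLC1 were lower, and NPM1 was not distinguishable from control. NCL, which encodes nucleolin, a protein that binds the ribosomal RNA precursor and its genes, had 545 and 629.6 TPM in DMSO and 387 and 424 TPM in JG342, a fall of 0.53 on the log2 scale (SE 0.10, limma adjusted p 0.00996). NOLC1, a phosphoprotein scaffold that binds snoRNPs and RNA polymerase I, had 206 and 225 TPM in DMSO and 156 and 159 TPM in JG342, a fall of 0.44 (SE 0.09, limma adjusted p 0.0134). NPM1, nucleophosmin, which organises the outer layer of the nucleolus, was the highest member, with 2074 and 2283 TPM in DMSO and 1829.9 and 2104 TPM in JG342. JG342 replicate 2 lay between the DMSO libraries, and the change of −0.15 ± 0.11 did not pass (limma adjusted p 0.362). NPM1 shares at least 30.4% of its transcript at 95.2% to 98.1% identity with 4 pseudogenes and a transcript assigned to CLEC2D. Leaving out DMSO replicate 2 ended both calls (limma adjusted p 0.0949 and 0.115), and leaving out any 1 of the other libraries ended neither.

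**Figure D2:**
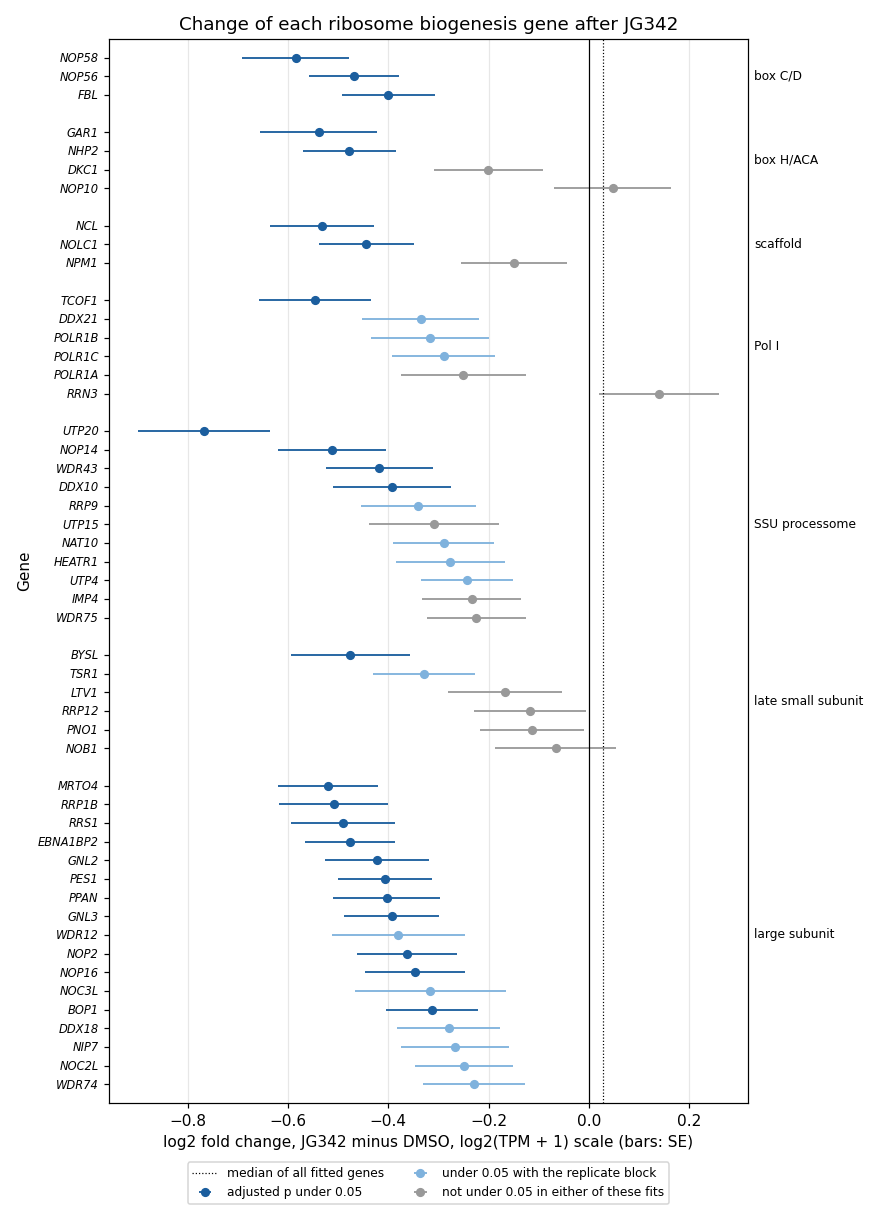
Log2 fold change of each gene after JG342 (points) with its standard error (bars) on the log2(TPM + 1) scale, grouped by role and coloured by whether it passed an adjusted p of 0.05 in the fit without or with the block, on TPM as deposited. Of the 50 genes, 24 passed without the block and 14 more with it; NOP10 and RRN3 are the members to the right of 0.

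Among genes of RNA polymerase I and its cofactors, TCOF1 fell. TCOF1 encodes treacle, which holds the polymerase and its initiation factors at ribosomal RNA genes, and had 76.5 and 88.4 TPM in DMSO and 53.9 and 58.2 TPM in JG342, a change of −0.55 ± 0.11 (limma adjusted p 0.0120; 0.103 without DMSO replicate 2). DDX21, an RNA helicase that acts in transcription and processing of ribosomal RNA, had 143 and 176 TPM in DMSO and 123 and 128 TPM in JG342. Its change of −0.34 ± 0.12 passed with the replicate block and not without it (limma adjusted p 0.000934 and 0.0765). Of the 2 large catalytic subunits, POLR1A had 18.7 and 18.4 TPM in DMSO and 15.9 and 15.1 TPM in JG342, and POLR1B had 32.1 and 36.4 TPM in DMSO and 27.3 and 27.2 TPM in JG342. Their changes were −0.25 ± 0.12 and −0.32 ± 0.12, and limma adjusted p with the block was 0.144 for POLR1A and 0.0248 for POLR1B, against 0.196 and 0.0950 without it, and 0.0479 for POLR1B without it after scaling to equal medians. POLR1C, a subunit shared with RNA polymerase III, changed by −0.29 ± 0.10 (limma adjusted p 0.0830, 0.0192 with the block, and 0.0376 without it after scaling to equal medians). RRN3, the factor that makes the polymerase competent to start, did not share the direction. It had 37.6 and 40.8 TPM in DMSO and 46.5 and 40.2 TPM in JG342, a change of 0.14 ± 0.12 (limma adjusted p 0.445), with 0.30 in the replicate 1 pair and −0.02 in the replicate 2 pair. RRN3 has partial copies, among them RRN3P1, RRN3P2 and RRN3P3, that match 23.6% to 30.4% of its transcript, so that reads could be split between them.

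The small subunit processome, the large particle that forms on the newly made precursor and makes the early cuts on the small subunit side, was represented by 11 genes, and in all 11 both JG342 values were under both DMSO values. Of these, 4 fell without the block and 8 with it. Both JG342 values were under both DMSO values in 28.2% of all fitted genes. The shares of all fitted genes called lower were 7.62% without the block and 15.7% with it. UTP20, a very large scaffold protein of the particle, showed the largest change of the 50 genes. It had 22.2 and 21.3 TPM in DMSO and 13.1 and 11.6 TPM in JG342, which is 57.0% of the DMSO mean, and its log2 fold change was −0.77 ± 0.13 (limma adjusted p 0.00592). NOP14, a processome subunit that binds other assembly factors, had 91.0 and 105 TPM in DMSO and 67.2 and 69.3 TPM in JG342, a change of −0.51 ± 0.11 (limma adjusted p 0.0131). WDR43, in the subcomplex that joins the precursor earliest, had 58.5 and 64.6 TPM in DMSO and 46.0 and 45.5 TPM in JG342, a change of −0.42 ± 0.11 (limma adjusted p 0.0271). DDX10, a helicase, changed by −0.39 ± 0.12, just inside the threshold (limma adjusted p 0.0490). The other members of the early subcomplex were UTP4, UTP15, WDR75 and HEATR1, and none of them passed without the block on TPM as deposited: their log2 fold changes were −0.24, −0.31, −0.22 and −0.28. UTP4 and HEATR1 passed after scaling to equal medians (limma adjusted p 0.0494 and 0.0470). With the block, limma adjusted p was 0.0248 for UTP4 and 0.0385 for HEATR1, and 0.0674 for UTP15 and 0.0700 for WDR75. RRP9, which binds the U3 snoRNP of the processome, and NAT10, the acetyltransferase of small subunit RNA, changed by −0.34 ± 0.12 and −0.29 ± 0.10. Both passed with the block (limma adjusted p 0.00292 and 0.0163) and, without it, after scaling to equal medians (0.0462 and 0.0419) but not on TPM as deposited (0.0720 and 0.0772). IMP4, which helps that snoRNP pair with the precursor, changed by −0.23 ± 0.10 and passed in neither fit (limma adjusted p 0.134 and 0.0574). UTP20 kept its call when each library was left out, with log2 fold changes from −0.85 to −0.69 and a limma adjusted p of 0.0442 at most. NOP14 lost its call without DMSO replicate 2, and WDR43 and DDX10 lost theirs without any 1 library (limma adjusted p for these losses up to 0.287).

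Factors that act late on the small subunit, in its export and its final steps in the cytoplasm, had a median log2 fold change of −0.14. Of these 6 genes 1 fell, against 7.62% of all fitted genes. BYSL, bystin, had 45.5 and 51.7 TPM in DMSO and 32.9 and 36.4 TPM in JG342, a change of −0.48 ± 0.12 (limma adjusted p 0.0249). The BYSL call was lost without DMSO replicate 1 (0.0559), DMSO replicate 2 (0.180) and JG342 replicate 1 (0.0929), all limma adjusted p. TSR1, which blocks premature joining to the large subunit, had 67.0 and 68.8 TPM in DMSO and 55.6 and 52.2 TPM in JG342, a change of −0.33 ± 0.10 (limma adjusted p 0.0540 without the block, 0.00575 with it, and 0.0272 without it after scaling to equal medians). The endonuclease NOB1, which makes the last cut of the small subunit RNA, had 82.9 and 90.5 TPM in DMSO and 74.6 and 91.6 TPM in JG342. Its partner PNO1 had 80.2 and 77.3 TPM in DMSO and 76.6 and 69.02 TPM in JG342. Neither they nor RRP12 and LTV1, which take part in export, passed in either fit: the log2 fold changes were −0.07 ± 0.12 for NOB1, −0.11 ± 0.10 for PNO1, −0.12 ± 0.11 for RRP12 and −0.17 ± 0.11 for LTV1, with limma adjusted p between 0.338 and 0.743 without the block and between 0.259 and 0.635 with it. NOB1 matches a processed pseudogene over 71.4% of its transcript at 96.8% identity, and its change was 0.08 without JG342 replicate 1. Whether the late factors changed less than the processome genes was not tested.

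Large subunit assembly was the largest group, with 17 genes. All 17 had both JG342 values under both DMSO values, 11 of 17 fell without the block and 17 with it, and the median log2 fold change was −0.38. Over all fitted genes, 28.2% had both JG342 values under both DMSO values. Of the same genes, 7.62% were called lower without the block and 15.7% with it. The PES1, BOP1 and WDR12 proteins form a complex that is needed to process the large subunit RNA. PES1 had 122 and 126 TPM in DMSO and 93.2 and 93.0 TPM in JG342, and fell by 0.41 (SE 0.09, limma adjusted p 0.0184). BOP1 had 134 and 136 TPM in DMSO and 109 and 108 TPM in JG342, and fell by 0.31 (SE 0.09, limma adjusted p 0.0455). WDR12, at 37.1 and 45.8 TPM in DMSO and 29.9 and 33.1 TPM in JG342, changed by −0.38 ± 0.13, past the threshold with the block alone (limma adjusted p 0.00399, and 0.0790 without it). The 3 genes of this complex thus had similar log2 fold changes, with the widest spread between replicates in WDR12.

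Of the other large subunit factors, 9 fell without the block. MRTO4, a relative of the ribosomal stalk protein that holds its place during assembly, had 113 and 116 TPM in DMSO and 75.9 and 83.8 TPM in JG342, a change of −0.52 ± 0.10 (limma adjusted p 0.00948). RRP1B, a nucleolar factor of large subunit processing, had 88.5 and 103 TPM in DMSO and 68.2 and 65.1 TPM in JG342, a change of −0.51 ± 0.11 (limma adjusted p 0.0139). RRS1, which helps to bring the small RNA of the large subunit into the particle, had 82.2 and 79.2 TPM in DMSO and 54.4 and 60.03 TPM in JG342, a change of −0.49 ± 0.10 (limma adjusted p 0.0133). EBNA1BP2, a factor of early large subunit particles, had the closest replicates of these, with 193 and 195 TPM in DMSO and 139 and 139.5 TPM in JG342 and a change of −0.48 ± 0.09 (limma adjusted p 0.00865). The GTPases GNL2 and GNL3, the latter known as nucleostemin, changed by −0.42 ± 0.10 and −0.39 ± 0.09 (limma adjusted p 0.0238 and 0.0221). GNL3 was the most abundant large subunit factor here, at 293 and 303 TPM in DMSO and 215 and 239 TPM in JG342. PPAN and the RNA methyltransferase gene NOP2 changed by −0.40 and −0.36 (limma adjusted p 0.0304 and 0.0373). PPAN shares 87.4% of its transcript with the read-through gene PPAN-P2RY11 and NOP2 shares 94.0% with the annotated gene AC006064.6, so their reads cannot be told apart. NOP16 changed by −0.35 ± 0.10 (limma adjusted p 0.0420).

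The remaining 5 large subunit genes, NIP7, WDR74, NOC2L, NOC3L and DDX18, had log2 fold changes from −0.32 to −0.23 and passed with the block (limma adjusted p 0.0142 to 0.0390) and not without it on TPM as deposited (0.0905 to 0.178), while DDX18 also passed without it after scaling to equal medians (0.0443). NOC3L, a partner in transport of large subunit precursors out of the nucleolus, was the least even: it had 28.4 and 35.8 TPM in DMSO and 28.1 and 23.0 TPM in JG342, so that the replicate 1 pair differed by −0.01 and the replicate 2 pair by −0.62. The 11 calls made without the block were sensitive to single libraries. MRTO4 and RRP1B kept theirs without DMSO replicate 1, none kept it without DMSO replicate 2, EBNA1BP2, MRTO4 and RRP1B kept it without JG342 replicate 1, and all but PES1 and BOP1 kept it without JG342 replicate 2. Over these fits the log2 fold changes of the 11 genes ran from −0.61 to −0.27, with limma adjusted p up to 0.212.

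**Figure D3:**
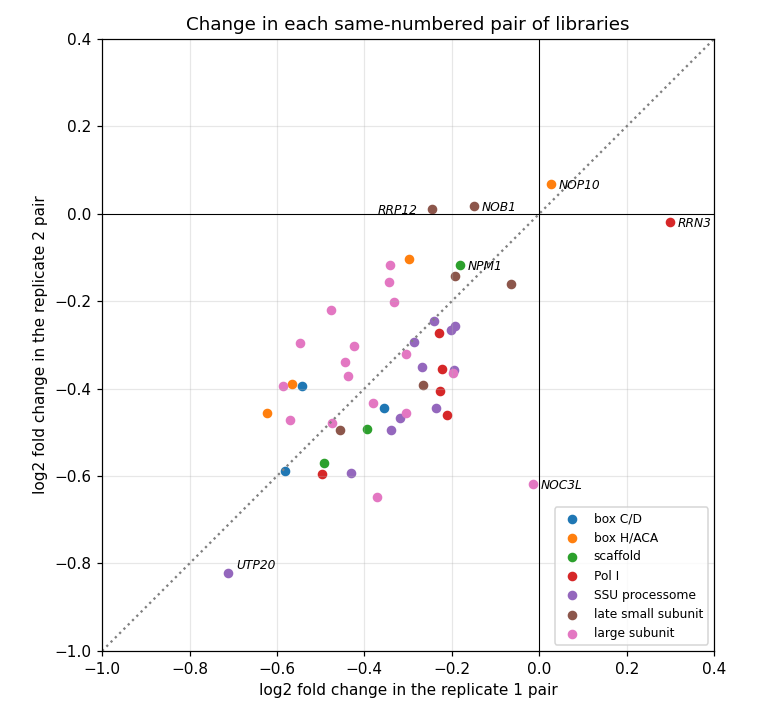
Log2 fold change on the log2(TPM + 1) scale in the replicate 1 pair (horizontal axis) against the replicate 2 pair (vertical axis) for the 50 genes, coloured by role, with the dotted line marking equal change. In 46 genes both pairs are below 0; NOP10 is above 0 in both, and RRN3, RRP12 and NOB1 differ in sign between pairs.

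Same-numbered pairs gave like medians. For the 50 genes the median was −0.33 in the replicate 1 pair and −0.37 in the replicate 2 pair (log2 fold change), while the medians over all fitted genes were 0.07 and −0.02. Both pairs were below 0 in 46 of the 50 genes, against 34.9% of all fitted genes, and NOP10 was above 0 in both. UTP20 was lowest in both pairs, at −0.71 and −0.82. In DMSO, 37 of 50 members were higher in replicate 2 than in replicate 1, against 7092 of 12042 fitted genes. In JG342, 32 of 50 members were higher in replicate 2, against 5212 of 12042 fitted genes. Members come from the same 4 libraries and were not taken as independent, and dependence among them was not tested. The level of a gene and the length of its transcript were only weakly related to its change across the 50 genes, which share the same 4 libraries (as descriptions, Pearson's r −0.05 and Spearman's rho −0.18 for the log2 DMSO level, and −0.21 and −0.13 for log2 length).

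Another 133 genes of ribosome assembly, listed by function, extended the comparison to the rest of the pathway. All 133 were fitted, 21 fell and 2 rose without the block, against the background of 7.62% and 10.8%, and 54 were lower and 6 higher with it, against 15.7% and 19.2%. Their median log2 fold change was −0.23, and 114 of the 133 were below 0. By role, 8 of 34 processome genes, 7 of 47 large subunit genes, 4 of 25 genes of the exosome and RNase MRP, 2 of 11 genes of RNA polymerase I, 0 of 7 late small subunit genes and 0 of 9 snoRNP assembly genes fell in the limma fit. Among the 21 that fell without the block, the largest falls were those of POP1, BRIX1 and WDR3. POP1 is a subunit of RNase MRP, BRIX1 a large subunit factor and WDR3 a processome subunit. POP1 had 8.61 and 9.40 TPM in DMSO and 5.63 and 5.68 TPM in JG342, a change of −0.59 ± 0.15 (limma adjusted p 0.0281; 0.0588 to 0.174 when any 1 library was left out). BRIX1 had 136 and 152 TPM in DMSO and 89.9 and 103 TPM in JG342, a change of −0.58 ± 0.11 (limma adjusted p 0.00857; 0.0752 without DMSO replicate 2). WDR3 had 28.5 and 30.9 TPM in DMSO and 20.01 and 19.6 TPM in JG342, a change of −0.56 ± 0.12 (limma adjusted p 0.0131; 0.0525 without DMSO replicate 1 and 0.107 without DMSO replicate 2).

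The 2 genes that rose have roles at other points of the pathway. NOP53, a large subunit factor that recruits the exosome, had 185 and 169 TPM in DMSO and 302 and 293 TPM in JG342, a rise of 0.75 ± 0.09 (limma adjusted p 0.00155). It passed in every fit that was run. RIOK3, an atypical kinase of late small subunit precursors, had 38.1 and 41.6 TPM in DMSO and 56.4 and 54.3 TPM in JG342, a rise of 0.47 ± 0.11 (limma adjusted p 0.0188). That call was lost without DMSO replicate 1 (0.118), DMSO replicate 2 (0.0679) or JG342 replicate 1 (0.0646). The count of the 133 genes called lower was 2 without DMSO replicate 1, 0 without DMSO replicate 2 and 9 without JG342 replicate 1, against 3.3%, 1.59% and 5.7% of all fitted genes, so that the first pair of these counts was no higher a share than the background, and that called higher was 1 without DMSO replicate 1. With low genes kept in the fit, POP1, BRIX1, WDR3 and RIOK3 did not pass (limma adjusted p 0.0503 to 0.0826). RIOK3 also did not pass when the variance was not modelled on the expression level.

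**Figure D4:**
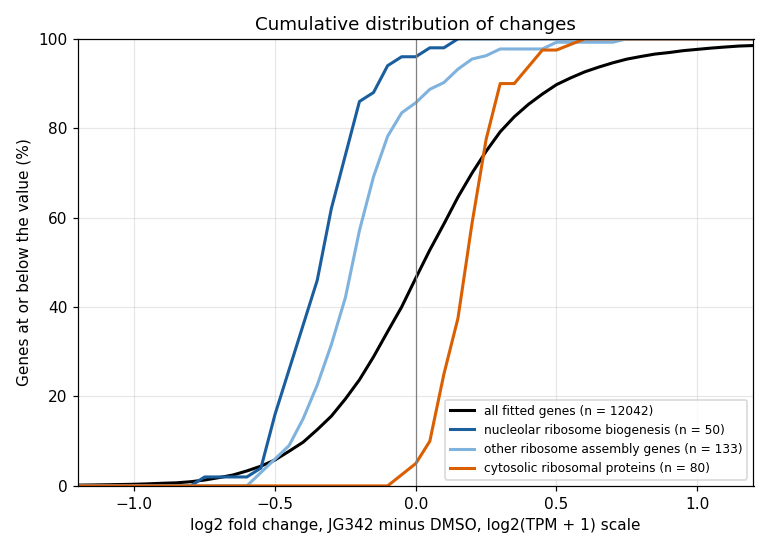
Cumulative share of genes (vertical axis, percent) at or below each log2 fold change after JG342 (horizontal axis) for all 12042 fitted genes, the 50 nucleolar genes, the other 133 assembly genes and 80 cytosolic ribosomal protein genes. The curves of the assembly genes lie to the left of that of all genes over most of the range, with medians of −0.34 and −0.23 against 0.03, and that of the ribosomal proteins has a median of 0.17.

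Transcripts of the ribosomal proteins themselves were set beside those of the factors that assemble them. Of 80 cytosolic ribosomal protein genes, 7 rose and 0 fell without the block, and 40 rose and 0 fell with it, while by unadjusted limma p under 0.05 the counts were 26 and 0. Over all fitted genes the shares called higher in these fits were 10.8%, 19.2% and 18.7%, so that the 7 rises without the block are a share below the background. Their median log2 fold change was 0.17, or 0.11 after scaling to equal medians, where 0 rose in the limma fit without the block and 5 with it, against 8.02% and 13.9% of all fitted genes. In the limma fit, 0 rose with low genes kept (3.32% of all genes), with no trend (8.15%), without DMSO replicate 1 (5.39%) or without DMSO replicate 2 (4.77%), and 7 and 3 rose without JG342 replicate 1 (7.91%) and 2 (9.19%). Both JG342 values were over both DMSO values in 60 of the 80, which held for 34.0% of all fitted genes. Many of these genes have processed pseudogenes, so single values are uncertain. The difference between the assembly factors and the ribosomal proteins as groups was not tested.

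MYC, the transcription factor for which many assembly genes are known targets, was lower, at 285 and 291 TPM in DMSO and 181 and 182 TPM in JG342. Its log2 fold change was −0.66 ± 0.09 (limma adjusted p 0.00206), it was at 63.0% of its DMSO mean, and it passed in every fit that was run. MXD1, which encodes a repressor that competes with MYC for MAX, had 6.30 and 6.49 TPM in DMSO and 10.4 and 9.00 TPM in JG342, a rise of 0.53 ± 0.15 (limma adjusted p 0.0423). The MXD1 call did not hold after scaling to equal medians (limma adjusted p 0.0522), with quantile normalization (0.0680), with low genes kept in the fit (0.106) or without DMSO replicate 1, DMSO replicate 2 or JG342 replicate 1 (0.156 to 0.165). Of the 11 genes of the MYC network listed, 10 were fitted and 1 fell and 1 rose, shares near the background of 7.62% and 10.8%. MXD3, a relative of MXD1, was called lower with the block (limma adjusted p 0.00544) and, without it, after scaling to equal medians (0.0381). Without the block on TPM as deposited, MXD3 did not pass (limma adjusted p 0.0622). The part of these changes in those of the 50 genes was not tested.

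Overlap with other annotated genes limits some single values. Exons of 21 of the 50 genes overlap an exon of a gene on the opposite strand in GENCODE release 29, and whether reads were counted by strand is not given in the sources used here. Near-identical copies were found for 8 genes, NPM1, NHP2, RRN3, NOB1, NOC2L, NOP2, LTV1 and PPAN. Of the 24 genes that fell, 14 have neither an opposite-strand overlap nor such a copy. Opposite-strand overlaps were counted at any length, down to 5 bases in GNL3. Overlaps on the same strand were not counted, such as that of RRS1 with another protein-coding gene (194 bases).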

How the data were processed

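Total RNA of MM.1S cells was sequenced by a service provider on a BGISEQ-500 instrument, per the labels' protocols. The authors deposited a table of 16057 genes with a symbol, a RefSeq accession and 1 TPM value per library, a unit that no header or label states and that was inferred from the library sums (994463 to 994718). The submitters' processing notes name HISAT2 2.0.4, Bowtie2 2.2.5 and RSEM 1.2.12; genome build, annotation and filters are not given in the sources used here.

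From the TPM values, log2(TPM + 1) was computed for the 12042 genes averaging 1 TPM or more and fitted with limma 3.58.1 in R 4.3.3 (eBayes with a mean-variance trend), treatment as the only term, two-sided p, Benjamini-Hochberg adjustment over all fitted genes and a threshold of 0.05. Fold changes on this scale understate those of low genes. The fit was tested on simulated data with larger changes than those of the members, so its performance at their size was not tested. Errors are SE with n = 2 per treatment; depth is unknown, so no counting interval is given.

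Same-numbered libraries share a prefix in their descriptions and were taken as pairs; their deviations correlated across fitted genes with r 0.27, and r −0.03 across the 50 members. The block fit has 1 residual degree of freedom and an infinite prior, so that variance is set by expression level alone. In 2 against 2 libraries the smallest exact permutation p is 0.333, so none is used.

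The members, lists and tests were chosen with earlier results of these data known. Named genes are all members, the 3 largest rises and falls among those of the other 133 that passed and averaged 5 TPM or more, and MYC with any regulator past the threshold; the ribosomal protein list was added after the data were seen. Older symbols were matched for TWISTNB, CD3EAP and ZNRD1. Near-identical copies were sought with BLAST 2.17.0 in GENCODE release 29 transcripts (95% identity or more, covering 20% or more of the transcript), with 47 members matched by accession and 3 by symbol.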

Additional observations from a re-analysis of the deposited data

How the results depend on the processing

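Alternatives were a pseudocount of 0.1, no filter on low values, a minimum mean of 5 TPM, scaling to equal medians, quantile normalization, the replicate block with and without median scaling, no mean-variance trend, and leaving out each library. All 50 members kept their side of the threshold with the smaller pseudocount, and no member was called higher in any of these fits. The genes differing over all fitted genes numbered 2221, and 828 with no filter, 4207 with the replicate block, 3985 with the block and median scaling, and 767 to 1825 when 1 library was left out. Members called lower numbered 24, and 8 with no filter, 12 with no trend, 38 with the block, 42 with the block and median scaling, and 3 to 20 when 1 library was left out. Their median of −0.34 became −0.41 with median scaling, with or without the block, and ran from −0.40 to −0.30 when 1 library was left out. Of the other 133 genes, 21 were lower, and 4 with no filter, 8 with no trend, 37 with median scaling, 54 with the block, 74 with the block and median scaling, and 0 to 17 without 1 library. Those called higher numbered 2, and 1 with no filter or no trend and 6 with the block, and these counts need not hold the same genes. Over all genes of each fit 7.62% were called lower, and 1.84% with no filter, 4.37% with no trend and 9.97% with median scaling. With the block this share was 15.7%, and with the block and median scaling 19.2%. The share called higher was 10.8%, and 3.32% with no filter, 8.15% with no trend and 19.2% with the block. The log2 fold change of NOP10 was −0.0215 with median scaling, with or without the block, and ran from −0.0791 to 0.1731 when 1 library was left out (below 0 without DMSO replicate 1 or JG342 replicate 2). That of NOB1 ran from −0.2124 to 0.0795 (above 0 without JG342 replicate 1). Neither passed in any fit. A fit without 1 library leaves 1 library in a treatment, whose spread is taken to be that of the other, and has 1 residual degree of freedom; otherwise the cause of these differences was not tested. All 24 members called lower were also called with the block.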
